A study of Mus musculus with 16 samples.

Results

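The genes of glycolysis and of glucose and lactate transport were followed in mouse blastocysts treated with inhibitors of 3 MAP kinase pathways. The set held 32 genes: transporters of glucose and of lactate, the enzymes from hexokinase to lactate dehydrogenase, regulators of phosphofructokinase, genes around pyruvate dehydrogenase, and enzymes of the pentose phosphate pathway. A gene was matched to every Affymetrix probe set that the platform annotation assigned to that gene alone, and the brightest such probe set on the 430 2.0 arrays stood for the gene. Of the 32 genes, 29 had such a probe set, and Gpi1, Eno1 and G6pdx were not analysed here for want of one. Gapdh was measured only by control probe sets and is described without a test, and Slc16a3 was below the signal filter. The remaining 27 genes were tested, among 12614 genes tested in all.

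The blastocyst is the preimplantation stage at which an outer trophectoderm encloses a fluid cavity and the inner cell mass. Total RNA came from blastocysts exposed to 20 µM SB203580, 25 µM SP600125 or 20 µM U0126, and from a group labelled WT for which no treatment is named. SB203580 is used to inhibit p38 MAP kinases, SP600125 to inhibit JNK, and U0126 to inhibit MEK, the kinase upstream of ERK. The labels do not give the strain, the time of exposure, the number of embryos in a sample, or whether the WT group received solvent. Each group had 3 samples, 12 in all. Replicate 1 was labelled by a small sample assay and read on a 430A and a 430B array, and replicates 2 and 3 were labelled by a two-cycle assay and read on 430 2.0 arrays. Nothing in the labels says that the replicates came from separate cultures, and p-values then measure only the spread between the samples. In such bulk RNA, fewer cells of a type and less RNA per cell cannot be told apart.

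Glycolysis splits glucose into pyruvate. Hexokinases trap glucose in the cell as glucose 6-phosphate, phosphofructokinase commits it to the pathway, and pyruvate kinase makes the final pyruvate. Pyruvate is either reduced to lactate by lactate dehydrogenase and exported by monocarboxylate transporters, or oxidised in mitochondria through pyruvate dehydrogenase, which pyruvate dehydrogenase kinases switch off. The mouse embryo lives mainly on pyruvate and lactate during cleavage and takes up much more glucose at the blastocyst stage, when facilitative glucose transporters and hexokinase are prominent.

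Signals are scaled array intensities on a linear scale, each array having a trimmed mean of 500. A log2 difference below is the mean over 3 samples per group of log2(signal + 12.6), compared within array type and given ± its standard error, and it understates changes of dim probe sets. Adjusted p-values are from limma with Benjamini-Hochberg adjustment over 27022 probe sets, and a difference was called at an adjusted p under 0.05. Levels of different genes were not set against each other, since probes differ in brightness. The median signal of the 430 2.0 arrays was higher with U0126, at 77.7 and 83.0, than in the other groups, where it ran from 61.1 to 68.9. Scaling the arrays to a common median instead moved the median difference of all genes between U0126 and WT from 0.048 to -0.14 on the log2 scale. Actin signal at the 3′ end over that at the 5′ end, which reflects RNA quality and labelling length, was 1.58 to 1.75 on the 430 2.0 arrays and 1.62 (U0126) to 3.66 (SP600125) on the 430A arrays. Markers of the blastocyst's own lineages were present: all listed markers passed the signal filter, 7 for trophectoderm, 7 for primitive endoderm and 6 for epiblast with inner cell mass. Of these, limma called 2 epiblast or inner cell mass markers higher with U0126 than in WT. It called 5 primitive endoderm markers and 1 trophectoderm marker lower with SP600125, and 1 primitive endoderm marker lower with U0126. Markers of a lineage did not all move alike. With SP600125, Gata6 of primitive endoderm was 3815, 5279 and 5178.5, above WT at 2720, 4895 and 5088. Eomes of trophectoderm was 4321, 9148 and 9583 with SP600125, above WT at 3189.5, 7197 and 5562. Nanog of the epiblast was 1161, 1883 and 1047 with U0126, against 1111, 1763.5 and 2376 in WT. The summed primitive endoderm signal on the 430 2.0 arrays was 20875 to 21062 in WT, 15148 to 18755 with SB203580, 11638 to 12149 with SP600125 and 11505 to 15290 with U0126. The summed epiblast and inner cell mass signal was 16061 to 18086 with U0126 and 12374 to 14862 in the other groups, and the trophectoderm sum was 93204 to 96233 with SB203580 and 102779 to 112471 in the others. Such sums mostly read the brightest probe sets, in trophectoderm those of Krt18 and Krt8, at 41691 and 33756 in WT replicate 2. Few markers of other cells that could come along passed the filter: 1 of 5 measured for cumulus and granulosa cells, 2 of 5 for uterine and oviduct epithelium and 2 of 4 for blood cells, with sums of at most 417 on the 430 2.0 arrays. In replicate 1 the cumulus and granulosa sum was 1924 in WT, 1903 with SB203580, 1265 with SP600125 and 1756 with U0126. Most of it was Foxl2, at 1698, 1714, 1058 and 1588, and the other sums there were at most 773. The part of these lineage shifts, of array medians and of RNA quality in the results below was not tested.

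Compared with WT blastocysts, none of the 27 genes passed the test under SB203580, SP600125 or U0126 on its brightest probe set. Among all genes tested, 0.634% were called with SB203580, 0.904% with SP600125 and 0.658% with U0126. At an unadjusted p under 0.05 in limma, 5 members were higher and 2 lower with SB203580, where 4.9% and 6.48% of all genes were. With SP600125, 2 were higher and 5 lower (4.59% and 5.64% of all genes), and with U0126, 2 were higher and 2 lower (7.59% and 5.8%). The median log2 difference of the members was -0.0099 with SB203580, -0.048 with SP600125 and -0.019 with U0126, beside 0.0059, -0.0016 and 0.048 for all genes. The median standard error was 0.19 for the members and 0.24 for all genes.

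The single result against WT that passed was on a second probe set of Slc2a1, which encodes the glucose transporter GLUT1. On that probe set U0126 blastocysts carried 1.74-fold the WT signal (log2 difference 0.80 ± 0.16, adjusted p = 0.0311), where 0.174% of all probe sets were called higher. The limits of this call are given with the transporter below.

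**Figure D1:**
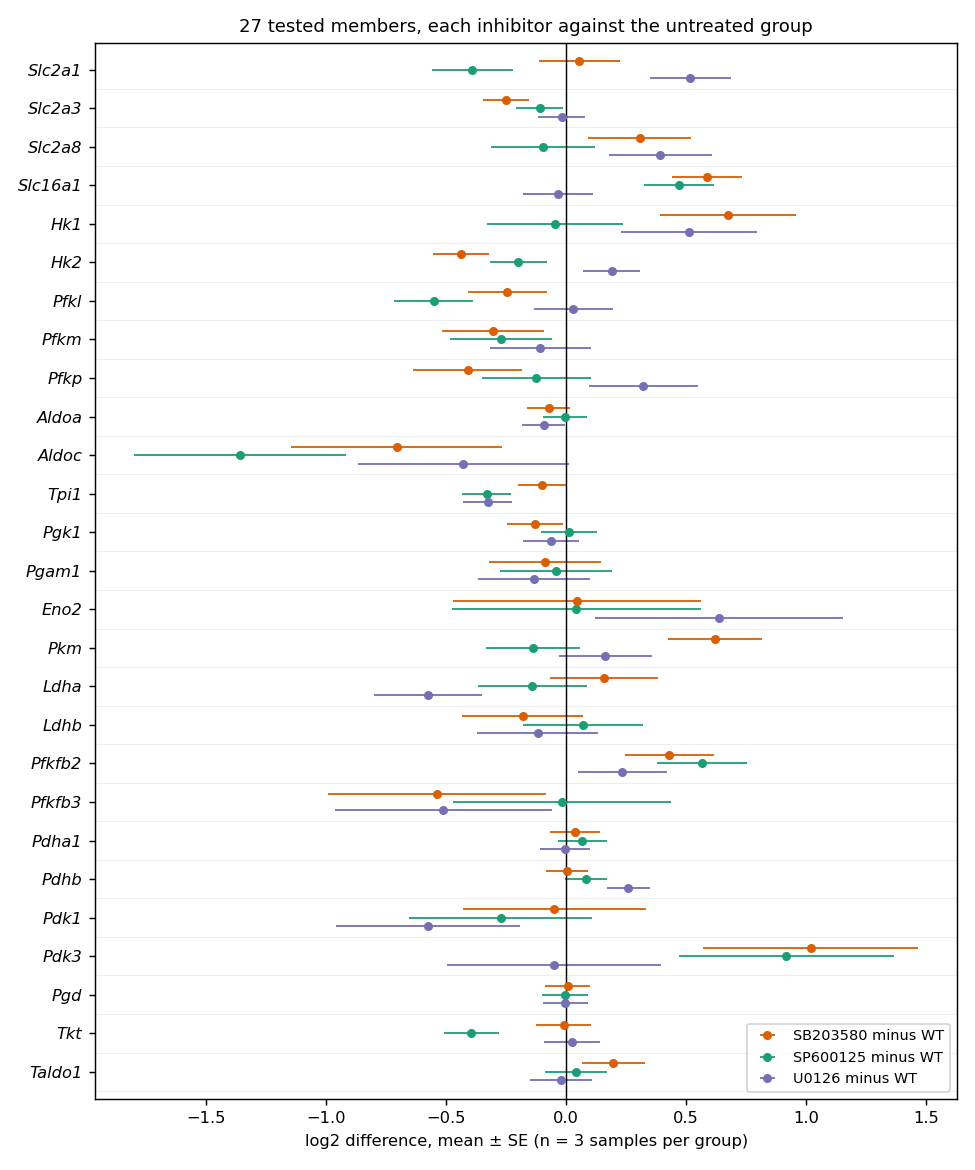
Log2 difference of each inhibitor from WT (horizontal axis, mean ± standard error, n = 3 samples per group) for the 27 tested genes (vertical axis, ordered by role), on the brightest probe set. No gene passed an adjusted p under 0.05. Dim genes such as Aldoc, Eno2 and Pdk3 have wide error bars, and Pgd lies next to 0 with all 3 inhibitors.

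Between inhibitors, 3 differences passed. The glucose transporter Slc2a1 was 1.88-fold lower with SP600125 than with U0126, the hexokinase gene Hk2 was 1.55-fold lower with SB203580 than with U0126, and the lactate and pyruvate transporter gene Slc16a1 was 1.54-fold higher with SB203580 than with U0126. These were 1 of 27 genes between SP600125 and U0126, where 4% of all genes were called, and 2 of 27 between SB203580 and U0126, where the share was 1.96%. Between SB203580 and SP600125 limma called no member, beside 1.06% of all genes, and at an unadjusted p under 0.05 in limma, 5 members were higher and 0 lower with SB203580, beside 6.48% and 6.71% of all genes. At the same threshold 5 members were higher and 5 lower with SB203580 than with U0126, beside 6.67% and 9.15% of all genes. Such counts between SP600125 and U0126 are not given here. The 3 inhibitor groups were also each compared with WT, so these comparisons share samples.

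**Figure D2:**
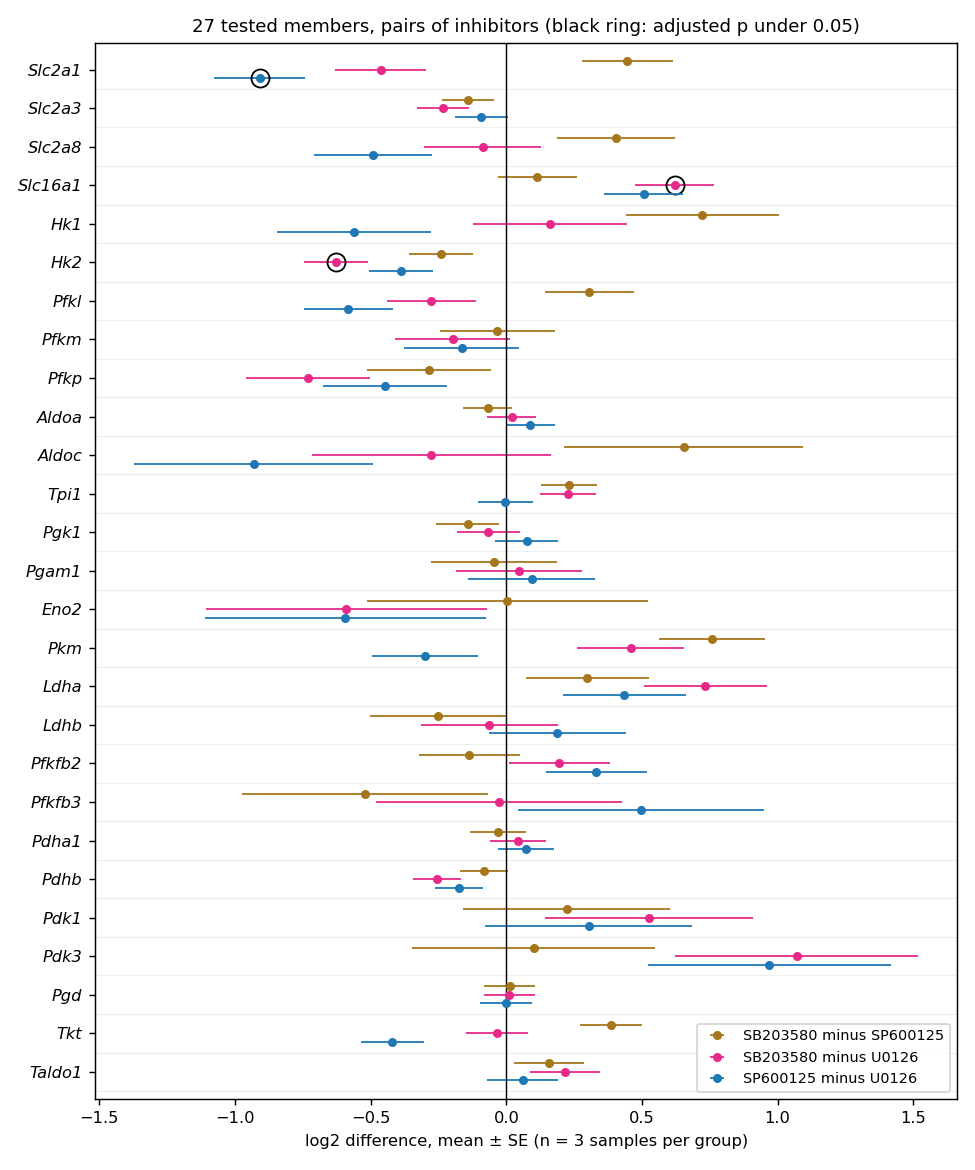
Log2 differences between pairs of inhibitors (horizontal axis, mean ± standard error, n = 3 samples per group) for the same 27 genes (vertical axis). Black rings mark adjusted p under 0.05 and surround Slc2a1 for SP600125 minus U0126 and Hk2 and Slc16a1 for SB203580 minus U0126.

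The promoters of these 3 genes are shown because the genes changed between inhibitors, as the 250 bases before the annotated start on the gene's own strand (RefSeq, GRCm38.p6). Capitals mark ACGTG on either strand (read as CACGT where it lies on the opposite one), the core of the hypoxia response element, and for Slc16a1 the E-box CACGTG, which holds that core on both strands. The Slc2a1 window is chr4:119108495-119108744 on the plus strand, Hk2 is chr6:82774455-82774704 on the minus strand and Slc16a1 is chr3:104638414-104638663 on the plus strand.
Slc2a1: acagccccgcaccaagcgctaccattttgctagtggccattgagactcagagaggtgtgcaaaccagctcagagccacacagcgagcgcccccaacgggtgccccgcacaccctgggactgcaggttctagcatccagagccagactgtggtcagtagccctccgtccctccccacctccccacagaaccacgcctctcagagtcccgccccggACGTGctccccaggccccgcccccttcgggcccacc
Hk2: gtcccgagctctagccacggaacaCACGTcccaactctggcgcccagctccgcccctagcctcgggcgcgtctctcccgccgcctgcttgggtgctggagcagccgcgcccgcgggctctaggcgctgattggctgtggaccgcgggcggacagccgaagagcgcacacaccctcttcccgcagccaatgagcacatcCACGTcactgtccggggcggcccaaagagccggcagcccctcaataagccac
Slc16a1: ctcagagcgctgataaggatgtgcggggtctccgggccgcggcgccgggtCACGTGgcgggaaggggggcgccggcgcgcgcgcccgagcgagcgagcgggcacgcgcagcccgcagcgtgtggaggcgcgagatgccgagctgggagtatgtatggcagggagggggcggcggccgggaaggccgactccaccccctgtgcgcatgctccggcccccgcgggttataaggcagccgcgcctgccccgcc
Counted back from the start, the core lay at -36 to -32 in Slc2a1. In Hk2 it occurred on the opposite strand at -226 to -222 and again at -52 to -48, and the E-box of Slc16a1 was at -200 to -195. All 3 windows were rich in G and C, at 66.4%, 69.6% and 76.4%. Of the 32 genes, 31 had at least 1 promoter in the RefSeq table, with 47 windows in all, and 18 windows (38.3%) held ACGTG on either strand, against 16.6% of all 32851 windows of that length. CACGTG was in 5 member windows (10.6%) and 6.02% of all windows. The AP-1 motif TGAGTCA was in 1 (2.13%) and 4.46%, and the Ets motif CCGGAAGT was in 0 of 47 and 2.88%, each on either strand. These matches describe letters in a window and show no binding.

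Slc2a1 encodes GLUT1, a facilitative glucose transporter of the blastocyst's cells. On its brightest probe set, WT signals were 815 in replicate 1 and 2431 and 2874 in replicates 2 and 3. With SP600125 they were 637, 1886 and 2085, with U0126 836, 4495 and 4464, and with SB203580 799, 2451 and 3258. U0126 samples were thus the highest and SP600125 samples the lowest on both array types, with no overlap between the 2 groups. The difference between SP600125 and U0126 was -0.91 ± 0.17 (adjusted p = 0.0068, limma), although replicate 1 of the 2 groups lay much closer than the 430 2.0 replicates. Against WT, U0126 differed by 0.52 ± 0.17 (adjusted p = 0.206), with replicate differences of 0.04, 0.76 and 0.75, and SP600125 by -0.39 ± 0.17 (adjusted p = 0.526).

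The other 2 Slc2a1 probe sets were higher with U0126 than in WT in every replicate. On the second, WT signals were 302, 944 and 903, those with U0126 523, 1690 and 1574, those with SP600125 224, 677 and 628, and those with SB203580 331, 1008 and 1051. Besides the call against WT, SP600125 was lower than U0126 by -1.26 ± 0.16 (adjusted p = 0.000363) and SB203580 by -0.65 ± 0.16 (adjusted p = 0.0481), where 1.49% and 0.84% of all probe sets were called lower. On the third probe set WT gave 262, 335 and 333 and U0126 355, 718 and 655, a difference of 0.81 ± 0.22 (adjusted p = 0.131). SP600125 gave 308, 338 and 297.5 there and SB203580 326, 399.6 and 417. SP600125 was thus above WT in replicates 1 and 2 on this probe set, unlike on the other 2. The SP600125 call on the second probe set held under all 22 other settings, with adjusted p from 0.000228 to 0.0165. The call against WT held under 10 of 22 and was lost, among others, without any single WT or any single U0126 replicate, with adjusted p from 0.0206 to 0.176. The SB203580 call held under 4 of 22.

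**Figure D3:**
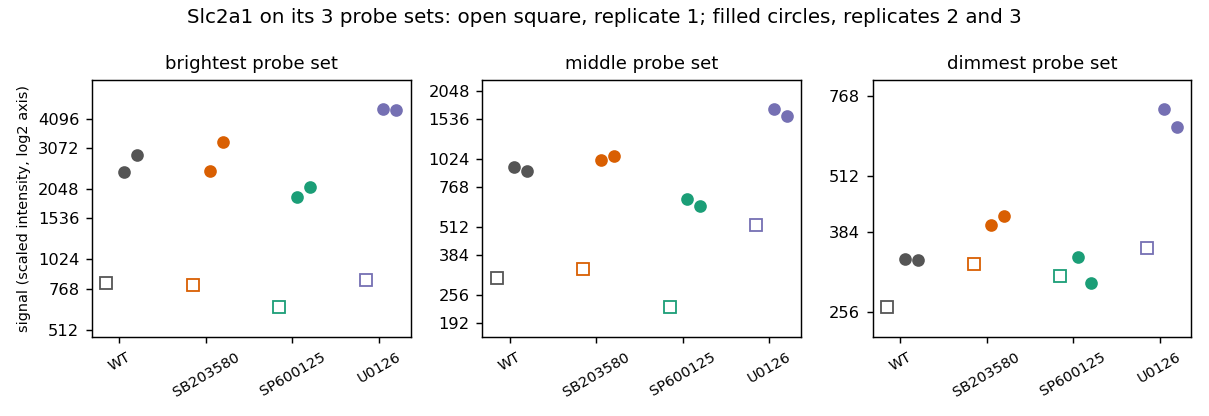
Signals of the 3 Slc2a1 probe sets in each of the 12 samples (vertical axis, scaled intensity on a log2 axis) by group, with replicate 1 on 430A arrays as open squares and replicates 2 and 3 on 430 2.0 arrays as filled circles. U0126 replicates 2 and 3 stand above the other groups on each probe set.

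Slc2a3, the gene of the high-affinity glucose transporter GLUT3, was bright in every sample on its brightest probe set. Its WT signals were 13946, 20038 and 21614. With SB203580 they were 10218, 18831 and 18570.0, below WT on both array types, with a difference of -0.25 ± 0.097 that did not pass (adjusted p = 0.375). SP600125 gave 12109, 19723 and 20081, and U0126 11299, 21945 and 23408, both overlapping WT. The brightest Slc2a3 probe set carries the suffix _s_at, given to probes shared between transcripts, so signal from related transcripts may enter it. Of the 4 tested Slc2a3 probe sets, those without an _s_at or _x_at suffix were dim. In WT they read 148.9, 74.1 and 127.6, and 54.4, 26.3 and 108.1.

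Slc2a8 encodes GLUT8, a glucose transporter held largely on inner membranes. Its signals were 399, 470 and 398 in WT, 531, 505 and 535 with SB203580, 512, 302 and 390 with SP600125; with U0126 they were 551, 660 and 474. SB203580 and U0126 samples lay above WT on both array types, and SP600125 samples did so only in replicate 1. None passed: the differences from WT were 0.31 ± 0.22 with SB203580, -0.098 ± 0.22 with SP600125 and 0.39 ± 0.22 with U0126 (adjusted p = 0.734, 0.968 and 0.492).

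Slc16a1 encodes MCT1, which carries lactate and pyruvate with a proton across the plasma membrane. Its WT signals were 706, 2111 and 2174. With SB203580 they were 1236, 2886 and 3103, with SP600125 934, 3003 and 3101, and with U0126 631, 2537 and 1880. SB203580 and SP600125 samples lay above WT and above U0126 on both array types, and U0126 samples overlapped WT. The difference from U0126 passed for SB203580 (0.62 ± 0.15, adjusted p = 0.0439) and did not for SP600125 (0.51 ± 0.15, adjusted p = 0.0711). Those from WT were 0.59 ± 0.15 with SB203580 (adjusted p = 0.107) and 0.47 ± 0.15 with SP600125 (adjusted p = 0.253). The called difference held under 6 of 24 other settings, with adjusted p from 0.0229 to 0.275, and among the 12 omissions of a single sample only that of U0126 replicate 2 kept it. The partner lactate exporter Slc16a3 (MCT4) had 1 probe set, at 8.2 to 75.4 over all samples and below the filter.

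Hexokinase 2, the product of Hk2, is the form that is abundant in tissues with high glucose use. Hk2 signals in WT were 5708, 11926 and 13207. With SB203580 they were 4339, 9415 and 8816, with SP600125 4457, 11218 and 11863, and with U0126 5174, 15006 and 17199. SB203580 was below WT and below U0126 in every replicate, and U0126 was above WT on the 430 2.0 arrays but below it in replicate 1. The difference between SB203580 and U0126 was -0.63 ± 0.12 (adjusted p = 0.0115, limma), and that between SB203580 and WT was -0.44 ± 0.12 (adjusted p = 0.147). SP600125 differed from U0126 by -0.39 ± 0.12 (adjusted p = 0.087). The call held under 19 of 24 other settings and was lost when arrays were scaled to a common median, without the intensity trend, and without SB203580 replicate 2, SB203580 replicate 3 or U0126 replicate 3 (adjusted p = 0.0669, 0.0742 and 0.0657; 0.00344 to 0.18 over all settings).

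Hk1, the widely expressed hexokinase, was dim. Its signals were 184, 121 and 161 in WT, 239, 260 and 258 with SB203580, 157, 141 and 146 with SP600125; with U0126 they were 173, 261 and 248. SB203580 samples stood above WT on both array types and U0126 samples only on the 430 2.0 arrays. The differences from WT were 0.68 ± 0.28 with SB203580 (adjusted p = 0.438) and 0.51 ± 0.28 with U0126 (adjusted p = 0.494). For SB203580 the 2 hexokinase genes therefore lay on opposite sides of WT, with neither difference past the threshold.

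**Figure D4:**
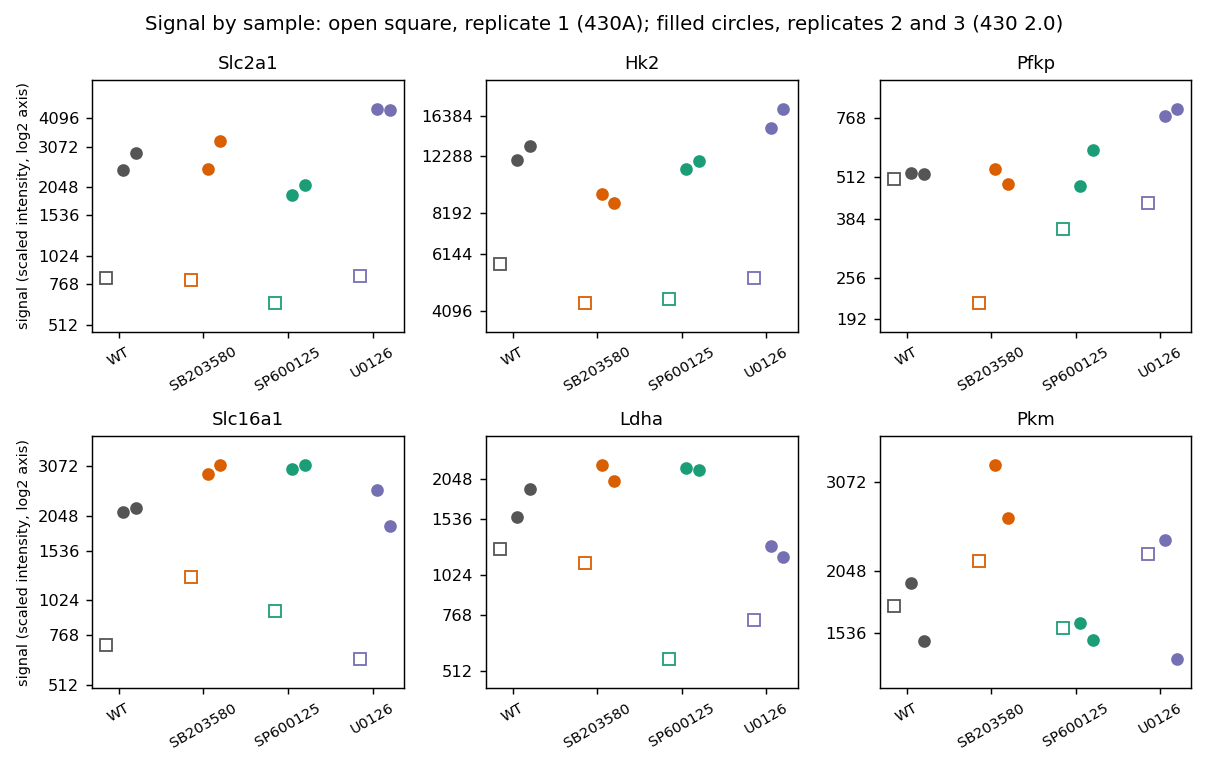
Signal by sample for Slc2a1, Hk2, Pfkp, Slc16a1, Ldha and Pkm (vertical axes, scaled intensity on a log2 axis, brightest probe set) in the 4 groups. Open squares are replicate 1 on 430A arrays and filled circles replicates 2 and 3 on 430 2.0 arrays, which are comparable only within array type; Hk2 is lowest with SB203580 and Slc16a1 is highest with SB203580 and SP600125.

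The enzymes from phosphofructokinase to triose phosphate isomerase comprise Pfkl, Pfkm and Pfkp, the 3 phosphofructokinase genes, the aldolase genes Aldoa and Aldoc, and Tpi1. All 6 had a log2 difference from WT below 0 under SB203580 (median -0.28) and SP600125 (median -0.30), and none passed the test. Of all 27 members, 14 lay below 0 with SB203580 (49% of all genes), 18 with SP600125 (50.3%) and 16 with U0126 (43.5%). With U0126, 4 of the 6 were below 0, with a median of -0.10, and 5 were below 0 when arrays were scaled to a common median, which turned the sign of Pfkl.

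Pfkl, the liver-type phosphofructokinase, gave 1474, 1119 and 1106 in WT, 854, 973 and 686 with SP600125, 1141, 935 and 1020 with SB203580, and 1560.3, 1232 and 1011 with U0126. SP600125 and SB203580 samples were below WT on both array types. The difference from WT was -0.55 ± 0.17 with SP600125 (adjusted p = 0.225) and that between SP600125 and U0126 was -0.58 ± 0.17 (adjusted p = 0.0677).

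Pfkp, the platelet-type form, was 503, 525 and 521 in WT and 429, 778 and 816 with U0126, which was above WT only on the 430 2.0 arrays. Against U0126, SB203580 (215, 540 and 488) differed by -0.73 ± 0.23 (adjusted p = 0.14) and SP600125 (358, 480 and 613) by -0.45 ± 0.23 (adjusted p = 0.331). A second, dimmer Pfkp probe set read 288, 91.1 and 55.0 with SP600125 and 538, 274 and 278 with U0126, with WT at 530, 156 and 124 and SB203580 at 309, 116 and 106. On it SP600125 was 2.79-fold lower than U0126 (-1.48 ± 0.30, adjusted p = 0.0118), a call kept under 19 of 22 other settings. It was lost without SP600125 replicate 3 or U0126 replicate 3 (adjusted p = 0.0647 and 0.0509) and with only the 2 groups compared. The 2 Pfkp probe sets shared the direction of this difference but not its size. Pfkm, the muscle form, ranged from 326 to 516 on the 430 2.0 arrays, and none of its differences passed.

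Aldoc, the brain-type aldolase, was the most variable of the group. Signals were 162, 236 and 156 in WT, 114, 166 and 62.4 with SB203580, 60.2, 123 and 31.4 with SP600125; with U0126 they were 102, 145 and 154. Samples with SP600125 and with U0126 were below WT on both array types, yet the differences of -1.36 ± 0.44 and -0.43 ± 0.44 did not pass (adjusted p = 0.286 and 0.749). Aldoa, the main aldolase, ranged only from 17623 to 20311 on the 430 2.0 arrays, and its differences from WT were -0.073, -0.0054 and -0.093, each ± 0.090, with SB203580, SP600125 and U0126.

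Tpi1, whose product interconverts the triose phosphates, was 3548, 10146 and 9848 in WT. It was 2609.6, 8356 and 8167 with SP600125, 2949.8, 7324 and 8316 with U0126, and 3362, 9884 and 8687 with SB203580. Both SP600125 and U0126 lay below WT in every replicate, each by -0.33 ± 0.10 (adjusted p = 0.251 and 0.193), and all 3 Tpi1 probe sets were below 0 in both comparisons.

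Lower glycolysis was read through Pgk1, Pgam1, Eno2, pyruvate kinase (Pkm) and Gapdh. Pkm signals were 1745, 1939 and 1486 in WT, 2139, 3319 and 2603 with SB203580, 1572, 1614 and 1489 with SP600125; with U0126 they were 2207, 2349.9 and 1366. SB203580 samples were the highest on the 430 2.0 arrays, above every WT and SP600125 sample of the same array type. The differences were 0.62 ± 0.20 from WT (adjusted p = 0.247) and 0.76 ± 0.20 from SP600125 (adjusted p = 0.094), neither past the threshold.

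Pgk1, phosphoglycerate kinase, which makes the first ATP returned by the pathway, ranged from 10206 to 12949 on the 430 2.0 arrays, with differences from WT of -0.13, 0.013 and -0.062, each ± 0.12, in the order SB203580, SP600125 and U0126. Pgam1, a phosphoglycerate mutase, ranged from 2020.3 to 4100.4 there, the lowest being U0126 replicate 3. Eno2, an enolase best known from neurons, was dim, at 28.3 to 180.2 on the 430 2.0 arrays. Its signals were 40.6, 55.5 and 90.7 in WT and 52.9, 114 and 157 with U0126, above WT on both array types, but the difference of 0.64 ± 0.52 did not pass (adjusted p = 0.666). SB203580 and SP600125 each differed from U0126 by -0.59 ± 0.52 in Eno2, and neither passed (adjusted p = 0.67 and 0.601). Gapdh, read by its 3′ control probe set on the 430 2.0 arrays, was 20808 and 19111 in WT and 24111 and 22585 in U0126 samples, and 22793 and 20316 after SB203580 against 19306 and 19678 after SP600125. On the 430A arrays it was 10094 in WT, 10199 with SB203580, 10599 with SP600125 and 10055 with U0126. Its 3′ to 5′ ratio varied from 2.61 to 4.80 over the arrays.

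Ldha encodes the lactate dehydrogenase subunit that favours lactate formation. Its signals were 1233, 1559 and 1913 in WT, 741, 1263 and 1169.5 with U0126, 1121, 2265 and 2014 with SB203580, and 559.7, 2218 and 2190 with SP600125. U0126 samples lay below WT on both array types, while SP600125 was far below WT in replicate 1 and above it in the other replicates. None of the differences passed: U0126 against WT was -0.58 ± 0.23 (adjusted p = 0.312) and SB203580 against U0126 0.73 ± 0.23 (adjusted p = 0.137). On the 430 2.0 arrays alone, Ldha was higher with SB203580 than with U0126 by 0.81 (adjusted p = 0.0474) and higher with SP600125 than with U0126 by 0.85 (adjusted p = 0.0286). Omitting SP600125 replicate 1 gave adjusted p of 0.0178 and 0.0177. Ldha was called under no other alternative setting, and both of these leave out SP600125 replicate 1, the lowest Ldha signal at 559.7. Ldhb, the subunit that favours pyruvate, ranged from 208 to 351 on the 430 2.0 arrays on its brightest probe set. Its differences from WT there were -0.18, 0.070 and -0.12, each ± 0.25. The Ldhb probe sets disagreed in direction. Of 4 tested, 4 lay above WT with SP600125, 3 with U0126 and 1 with SB203580, and none was called. On the second, dimmer one, WT gave 150, 77.1 and 82.7, SP600125 155, 189 and 207.5, and U0126 166, 156 and 218.5.

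The regulators Pfkfb2 and Pfkfb3 make and degrade fructose 2,6-bisphosphate, which activates phosphofructokinase. Pfkfb2 was read on the 430B array in replicate 1, at 1193 in WT, 1529 with SB203580, 1669 with SP600125 and 1122 with U0126. On the 430 2.0 arrays WT was 338 and 257, SB203580 428 and 398, SP600125 413 and 506, and U0126 399 and 386. SB203580 and SP600125 were above WT on both array types, by 0.43 ± 0.19 and 0.57 ± 0.19, and neither passed (adjusted p = 0.465 and 0.294). Pfkfb3 was dim, at 23.5 to 80.4 on the 430 2.0 arrays.

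Pdha1 and Pdhb encode the 2 subunits of the first enzyme of the pyruvate dehydrogenase complex. Pdhb was 5853, 11386 and 11662 in WT, 6884, 13590.3 and 14259.7 with U0126, 5346, 12283 and 11899.6 with SB203580, and 6150, 12221 and 12304 with SP600125. U0126 was above WT in every replicate, by 0.26 ± 0.089 (adjusted p = 0.238). Pdha1 differed from WT by 0.038, 0.068 and -0.0051, each ± 0.10, with SB203580, SP600125 and U0126. The pyruvate dehydrogenase kinases Pdk1 and Pdk3 were dim, at 76.5 to 190.0 and 81.8 to 279.4 on the 430 2.0 arrays, with standard errors of 0.38 and 0.45, and none of their differences passed.

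In the pentose phosphate pathway, which branches from glucose 6-phosphate to make NADPH and ribose, Pgd, Tkt and Taldo1 were tested. Transketolase (Tkt) was 5325, 11897 and 14484 in WT, 3729.5, 9945 and 10857 with SP600125, 5048, 13228 and 13459 with SB203580, and 6357, 12182 and 12472 with U0126. SP600125 samples were the lowest on both array types. The differences of SP600125 were -0.40 ± 0.12 from WT (adjusted p = 0.209) and -0.42 ± 0.12 from U0126 (adjusted p = 0.0608), and SB203580 exceeded SP600125 by 0.39 ± 0.12 (adjusted p = 0.167). Pgd differed from WT by 0.0068, -0.0050 and -0.0038, each ± 0.094, and Taldo1 by 0.20, 0.040 and -0.020, each ± 0.13, in the order SB203580, SP600125 and U0126.

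The 95% interval of the log2 difference from WT lay within ± 0.5, which is 1.41-fold, for 10 of 27 genes with SB203580, 8 with SP600125 and 11 with U0126. For 7 genes this held with all 3 inhibitors: Slc2a3, Aldoa, Pgk1, Pdha1, Pdhb, Pgd and Taldo1. These intervals hold for the brightest probe set alone. That probe set carries the suffix _x_at for Aldoa, Pgk1 and Pgd and _s_at for Slc2a3, so signal from other transcripts may enter it. On a Pgk1 probe set without such a suffix, WT read 4633, 7051 and 7455 and SB203580 3120, 8561 and 8001. On a dimmer Pgd probe set WT read 1941, 13993 and 7480 and U0126 2090, 5938 and 5764. Of 4 tested Pgd probe sets, 2 lay above and 2 below WT with U0126. On a second Slc2a3 probe set, with the suffix _x_at, WT read 13425, 16834 and 16771 and SB203580 9562, 14412 and 13432.5. For the other members, changes larger than this were not excluded by the interval in at least 1 comparison.

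Separation of samples was counted as well. A gene was counted when its replicate 1 and both 430 2.0 samples of one group lay on the same side of the other group's samples of that array type. Against WT, 5 members were higher and 4 lower with SB203580 (beside 12.7% and 13.7% of all genes), 3 and 6 with SP600125 (12% and 13.2%), and 4 and 3 with U0126 (14.4% and 9.99%). The members higher with SB203580 were Slc2a8, Slc16a1, Hk1, Pkm and Pfkfb2, and the lower ones Slc2a3, Hk2, Pfkl and Pgam1. Between SB203580 and SP600125, 6 were higher and 2 lower with SB203580 (15.1% and 14.3% of all genes), and between SB203580 and U0126, 6 and 6 (11.2% and 16.4%). Between SP600125 and U0126, 3 were higher and 9 lower with SP600125 (13.2% and 18.2%), the lower ones being Slc2a1, Slc2a8, Hk1, Hk2, Pfkl, Pfkp, Aldoc, Pdhb and Tkt.

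Other genes of the pathway were taken as a list of 60, of which 46 passed the signal filter. Against WT, 1 was lower and 0 were higher with SB203580, 1 was higher and 0 were lower with SP600125, and 1 was higher and 2 were lower with U0126. Among all genes, the shares called higher and lower were 0.143% and 0.492%, 0.381% and 0.523%, and 0.246% and 0.412%, in the same order. The median log2 difference of the 46 was 0.058 with SB203580, 0.049 with SP600125 and 0.00017 with U0126. Between inhibitors, limma called 1 lower with SB203580 than with SP600125 (0.309% of all genes were higher and 0.753% lower) and 0 between SB203580 and U0126 (0.721% and 1.24%). In the latter comparison 2 of the 46 were higher and 8 lower with SB203580 at an unadjusted p under 0.05 in limma, beside 6.67% and 9.15% of all genes. In the former, 5 were higher and 7 lower at that threshold, beside 6.48% and 6.71%. Between SP600125 and U0126 limma called 2 higher and 1 lower with SP600125 (1.92% and 2.08%), and unadjusted counts are not given. Scaling to a common median moved the balance of directions over all genes in 5 of the 6 comparisons by over 10 percentage points. Of the genes called, 37.3% were higher with U0126 than in WT, 22.5% with SB203580 than in WT, 29.1% with SB203580 than with SP600125, 36.8% with SB203580 than with U0126 and 48% with SP600125 than with U0126. With arrays scaled to a common median these were 10.1%, 8.51%, 10.1%, 68.5% and 84.7%, while the share higher with SP600125 than in WT went from 42.1% to 38%. With quantile normalization the shares, in the order of the 5 and then SP600125 against WT, were 35.4%, 20%, 28.6%, 38.1%, 49.6% and 39.6%.

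Pgam2, the muscle phosphoglycerate mutase, fell with SB203580 and with U0126. Its signals were 1800.4, 5147 and 3633 in WT, 696, 2389.7 and 2229.9 with SB203580, 693, 1450.3 and 2114 with U0126, and 838, 3667 and 3080.3 with SP600125. SB203580 and U0126 samples lay below WT on both array types. SB203580 was 2.08-fold below WT (-1.05 ± 0.19, adjusted p = 0.0153) and U0126 2.50-fold below WT (-1.32 ± 0.19, adjusted p = 0.00402). The first call held under 16 of 24 other settings (adjusted p from 0.00946 to 0.261). It was lost without any single SB203580 replicate or without WT replicate 1 or 2 (adjusted p from 0.0507 to 0.124). Median scaling, no intensity trend and 430 2.0 arrays only also ended it. The second call held under 23 of 24, lost without the intensity trend (adjusted p = 0.131). SP600125 exceeded U0126 by 0.71 ± 0.19 (adjusted p = 0.0474), a call kept under 11 of 24 other settings. Of 12 omissions of a single sample, 9 ended that call (adjusted p from 0.0538 to 0.197). Pgam1, the form counted among the members, gave -0.088, -0.042 and -0.14, each ± 0.23, in the order SB203580, SP600125 and U0126.

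Epas1 encodes HIF-2α, a hypoxia-inducible transcription factor. It was read on 430B at 20542 in WT, 23459 with SB203580, 30745 with SP600125 and 32365 with U0126. On the 430 2.0 arrays WT gave 7689 and 7515, SB203580 8434 and 10221, SP600125 10025 and 9979.5, and U0126 10627 and 11580.2. All inhibitor samples were above WT, and the test passed for SP600125 (0.46 ± 0.098, adjusted p = 0.0427) and U0126 (0.58 ± 0.098, adjusted p = 0.0108). These calls held under 11 and 17 of 24 other settings. The first was lost without any single WT or SP600125 replicate or SB203580 replicate 2 (adjusted p from 0.0622 to 0.265), the second without WT replicate 1 or U0126 replicate 3 (0.0636 and 0.051). Both were also lost with median scaling, without the intensity trend and on the 430 2.0 arrays only. Further losses of the first came with a pseudocount of 1, no filter or quantile normalization. Those of the second came with only the 2 groups compared or with averaged probe sets. Over all settings the adjusted p reached 0.456 and 0.419. On a second, dimmer Epas1 probe set U0126 samples, at 685, 1026 and 1062, overlapped or lay below WT, at 962, 1064 and 1059.8, so the probe sets disagreed for U0126.

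Fbp2, the muscle fructose bisphosphatase, which runs the phosphofructokinase step in reverse, was 4900.0, 11454 and 10488 in WT and 3755, 6779 and 7631 with U0126, lower in every replicate. The difference was -0.53 ± 0.10 (adjusted p = 0.0318), kept under 13 of 24 other settings and under 4 of 12 omissions of a single sample (adjusted p up to 0.16, without WT replicate 2). Hkdc1, a hexokinase relative, was 352, 428 and 257 with U0126, 127, 134 and 110.1 with SP600125 and 173, 117 and 107 in WT. It was 2.58-fold lower with SP600125 than with U0126 (-1.37 ± 0.32, adjusted p = 0.0282), while U0126 exceeded WT by 1.30 ± 0.32 without passing (adjusted p = 0.0907). The call between SP600125 and U0126 held under 15 of 24 other settings. It was lost without any single SP600125 replicate or without U0126 replicate 1 or 2 (adjusted p from 0.0714 to 0.107). Median scaling, no intensity trend, 430 2.0 arrays only and only the 2 groups compared also ended it.

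Tktl1, a transketolase-like gene, was 105, 198 and 171 with SB203580, 355, 749.7 and 510.0 with SP600125, 227, 563 and 361 in WT and 147, 251 and 591 with U0126. It was 3.18-fold lower with SB203580 than with SP600125 (-1.67 ± 0.31, adjusted p = 0.0134), and its difference of -1.17 ± 0.31 between SB203580 and WT did not pass (adjusted p = 0.133). The called difference was lost without SB203580 replicate 2 or 3 or SP600125 replicate 1 or 2 (adjusted p from 0.0558 to 0.0924), without the intensity trend (0.104) and on the 430 2.0 arrays only (0.0636). The probe set carries the suffix _s_at. On a second, dimmer Tktl1 probe set without it, SB203580 samples read 125.6, 82.1 and 74.0 and SP600125 samples 173, 164 and 168, a difference of -0.79 that did not pass (adjusted p = 0.404). Txnip, whose product restrains glucose uptake, was 781, 2523 and 3149 with SP600125, 449, 1388 and 2247 with U0126, 494, 1993 and 1415 in WT and 669, 2322 and 2539.6 with SB203580. SP600125 exceeded U0126 by 0.71 ± 0.18 (adjusted p = 0.0434) and WT by 0.71 ± 0.18 (adjusted p = 0.111). The first of these was lost under 8 of 12 omissions of a single sample (adjusted p from 0.0536 to 0.171). It was also lost with a pseudocount of 1, no filter or no intensity trend. Further losses came on the 430 2.0 arrays only, with only the 2 groups compared and with averaged probe sets. On a second, dimmer Txnip probe set, SP600125 and U0126 samples overlapped on the 430 2.0 arrays. In the comparison of SP600125 with U0126, Slc2a1 and Txnip both passed on the brightest probe set, on opposite sides. The Slc2a1 call held under 23 of 24 other settings and the Txnip call under 10 of 24.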

How the data were processed

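Total RNA from 12 blastocyst samples was read on 16 Affymetrix arrays of 3 types. Each probe set has 1 deposited value, a linear signal intensity, which the authors had scaled: every array has a mean of 500 after trimming 2% at each end, as computed from the values. How probes were summarised, and with which software, is not given in the sources used here.

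Control probe sets (64) were left out, and 100 probe sets present on both 430A and 430B entered from 430A. The log2 of signal + 12.6 (the 20th percentile of the 430 2.0 values) was fitted for probe sets at or above the 40th percentile of mean 430 2.0 signal (42.9), 27022 of 45037. The model in limma 3.58.1 (R 4.3.3) had the 4 groups and the array type, which coincides with the labelling assay, as a fixed block, with an intensity trend (residual degrees of freedom 7, prior 9.7 at the median). Two-sided p-values were adjusted over all 27022 probe sets in each of 6 comparisons. Precision is limited by the number of arrays.

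Every member was accounted for by role. Signals per sample are given for members called in a comparison and for the 5 whose moderated t against WT was largest in size under each inhibitor, and for pathway genes called or among the 2 largest. The values of Pfkp, Pfkfb2 and Gapdh were given after they had been seen. Signals of Eno2 and of dimmer Ldhb and Pgd probe sets also fall outside this rule. The members and lists were chosen with earlier results of these data known. Alternatives changed the pseudocount, filter, scaling, trend, block, array types, groups fitted, probe sets or omitted single samples. Promoters and motif matches come from RefSeq windows of GRCm38.p6.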

Additional observations from a re-analysis of the deposited data

How the results depend on the processing

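Directions of the 3 called members and of the called pathway genes did not turn under any of up to 24 alternatives each. The call of Slc2a1 between SP600125 and U0126 was lost only without the intensity trend (adjusted p = 0.091), a setting that also cut the calls among all genes from 504 to 80 in that comparison. Members called between SB203580 and U0126 fell from 2 to 1 with a pseudocount of 1, no filter, quantile normalization or only the 2 groups compared, and to 0 with median scaling or no intensity trend, and rose to 3 when each gene's probe sets were averaged (with Pfkp, -0.90, adjusted p = 0.0379). On 430 2.0 arrays only the count stayed at 2, with Ldha among them. Omitting single samples gave 0 to 2. Between SP600125 and U0126 the count of 1 became 2 with the filter at the 60th percentile, quantile normalization, 430 2.0 arrays only, or the replicate block, 3 when each gene's probe sets were averaged, and 0 without the trend, and 1 to 2 when single samples were omitted. Between SB203580 and SP600125 it became 1 with the replicate block (Pkm) and 2 with only these 2 groups fitted (Pkm and Tkt), and 0 to 1 over the omissions. Between U0126 and WT it became 1 when each gene's probe sets were averaged (Slc2a1, 0.71, adjusted p = 0.0343), and 0 to 1 over the omissions, the 1 being Slc2a1 without U0126 replicate 1 (adjusted p = 0.047).

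The members' median log2 difference between U0126 and WT was -0.20 with median scaling (all genes -0.14), 0.0044 on 430 2.0 arrays only, 0.013 without _x_at and _s_at probe sets, and -0.045 to 0.017 over the omissions. Median scaling gave 0.14 between SB203580 and U0126 (all genes 0.12) and 0.17 between SP600125 and U0126 (all genes 0.12), where the mean of probe sets gave -0.13. Between SB203580 and SP600125 the median was 0.10 with the 60th percentile filter, -0.0052 on 430 2.0 arrays only, 0.11 without _x_at and _s_at probe sets, 0.092 with the mean of probe sets, and 0.011 to 0.14 over the omissions. Between SP600125 and WT it ran from -0.12 to -0.0071 over the omissions. The causes of these shifts were not tested.

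Calls among all genes moved by over 1.5 times without the intensity trend (1, 6, 1, 15, 25 and 80, in the order SB203580, SP600125 and U0126 against WT, SB203580 against SP600125, SB203580 against U0126 and SP600125 against U0126, where the main counts were 80, 114, 83, 134, 247 and 504). They also did so for several comparisons with median scaling (47, 50, 99, 79, 149 and 406) on the 430 2.0 arrays only (31, 58, 36, 78, 142 and 221) and with only the 2 groups compared (58, 116, 38, 198, 119 and 267). Omitting single samples gave 24 to 91, 51 to 132, 35 to 80, 60 to 159, 92 to 242 and 237 to 502. Replicate numbers are shared by the groups, but the replicate 2 minus 3 differences correlated between groups at only 0.018 to 0.088, so the numbers were not taken to pair the samples, although all 6 correlations were above 0. With the replicate block the calls among all genes were 88, 128, 101, 153, 277 and 581. Dim members, such as Aldoc, Eno2, Pdk3 and Pfkfb3, with standard errors of 0.44 to 0.52, limit what could be detected.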
